A study of Homo sapiens with 12 samples.

Results

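Interferon response and major histocompatibility complex (MHC) class I genes were followed in H295R, an established human adrenocortical carcinoma cell line, at different amounts of DLK1. The set holds 40 named genes, found by their symbols in the count table of 60670 genes with counts, where each symbol stood once. Of these, 8 serve antigen presentation (PSMB8, PSMB9, TAP1, TAP2, HLA-B, HLA-C, HLA-E and B2M) and 32 are antiviral or regulatory genes. There were 3 groups of H295R cells, each with 4 RNA-seq libraries numbered replicates 3 to 6: cells made to over-express DLK1 (OE), cells with DLK1 knocked down (KD) and wild-type cells (WT). The labels do not say how the knock-down and over-expression were made, whether control cells carried a vector, whether a line was 1 clone, or whether replicates were separate cultures. The p-values therefore measure the spread between these libraries, which may be technical.

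Type I and type II interferons bind receptors that activate JAK kinases and STAT proteins. Activated transcription factors then bind an interferon-stimulated response element (ISRE) or a gamma-activated site (GAS) in the promoters of interferon-induced genes. The products block viral entry, translation and replication, or cut proteins into peptides and load them onto MHC class I molecules, in which a heavy chain pairs with beta-2-microglobulin for display to T cells and natural killer cells. Many of these genes also have a basal level in cells that receive no interferon.

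Libraries held 9303266 to 13797397 counts. After genes with low counts were left out, 15916 were tested with edgeR's quasi-likelihood test, and a gene was called at an adjusted p under 0.05. Values per library are in CPM, counts scaled to library size, and levels of different genes are compared in TPM, which also divide by gene length. DLK1 averaged 3213 ± 148 CPM in OE, 1338 ± 113 CPM in KD and 2675 ± 132 CPM in WT libraries (SD, n = 4 each), and the groups did not overlap. All 8 adrenocortical markers, among them NR5A1, STAR and CYP17A1, passed the filter, with summed levels of 1406 to 1537 CPM in OE, 1180 to 1406 CPM in KD and 1463 to 1568 CPM in WT. The mean of this sum was lowest in KD, as B2M and SAMD9 were, and its part in those results was not tested. Single markers went both ways. In KD against WT STAR and CYP17A1 were called lower, with log2 fold changes of -0.61 and -0.77, and HSD3B2 higher, at 0.99. These were 37.5% of the 8 markers, beside 9.06% of all genes tested. Of 10 immune cell markers, which would show cells that use these genes heavily, 4 (CD3D, CD3E, MS4A1 and TYROBP) were at 0 counts in every library. PTPRC, found on all leukocytes, had 2 counts in all. However, 3 of the 10 passed the filter, and the list held 584 counts over all libraries together. Its sum was 3.92 to 4.35 CPM in OE, 2.26 to 4.46 CPM in KD and 3.69 to 5.69 CPM in WT. KD replicate 3 stood apart from its group: its counts differed from those of the other KD libraries with a chi-square per degree of freedom of 6.16 to 10.9, against 3.81 to 4.22 among those others, and its mitochondrial share was 4.99% of counts, against 6.65% to 8.37% elsewhere. In bulk RNA, fewer cells with a transcript and less of it per cell cannot be told apart.

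Of the 40 genes, 38 were tested and 8 were called in at least 1 comparison: B2M, HLA-C, HLA-E, IRF1, OAS1, PARP14, SAMD9 and IFIT5. These are 21.1% of the 38, beside 19.3% of all genes tested. Their called log2 fold changes were 0.17 to 0.57 in size. The other 30 tested genes, among them ISG15, MX1, IFIT1, IFIT3, BST2, TAP1 and HLA-B, were called in none. The class I light chain B2M was higher in OE than in KD and lower in KD than in WT, while the heavy chain HLA-C had the opposite pattern.

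Promoter stretches of 7 called genes, all but HLA-E, are shown because they hold, or lack, letters searched as an ISRE-like or GAS-like match. Each line is 100 of the 250 bases before the transcription start, from RefSeq windows on GRCh38.p14, written 5' to 3' on the gene's strand. Capitals mark an ISRE-like match, GAAA NN GAAA without the gaps, or a GAS-like match, TTCNNNGAA, with N as any base, both searched on both strands. In B2M 2 overlapping ISRE-like matches run together, in PARP14 the GAS-like match comes first and the ISRE-like match after it, and in IFIT5 both matches shown read on the opposite strand. The HLA-C promoter holds neither match. Elements with other letters or other spacing were not searched, in HLA-C or in the other genes.
B2M (chr15:44711343-44711442, plus strand): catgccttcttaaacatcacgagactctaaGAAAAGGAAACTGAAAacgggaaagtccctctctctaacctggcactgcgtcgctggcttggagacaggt
HLA-C (chr6:31272093-31272192, minus strand): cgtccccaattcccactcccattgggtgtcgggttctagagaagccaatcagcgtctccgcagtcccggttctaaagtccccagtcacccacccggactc
IRF1 (chr5:132490828-132490927, minus strand): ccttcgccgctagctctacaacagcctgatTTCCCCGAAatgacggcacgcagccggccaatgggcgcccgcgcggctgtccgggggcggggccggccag
OAS1 (chr12:112906764-112906863, plus strand): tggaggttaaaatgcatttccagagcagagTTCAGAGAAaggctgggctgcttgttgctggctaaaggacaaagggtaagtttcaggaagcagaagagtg
PARP14 (chr3:122680739-122680838, plus strand): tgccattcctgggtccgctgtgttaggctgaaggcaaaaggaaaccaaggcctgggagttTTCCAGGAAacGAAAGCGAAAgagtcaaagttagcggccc
SAMD9 (chr7:93118046-93118145, minus strand): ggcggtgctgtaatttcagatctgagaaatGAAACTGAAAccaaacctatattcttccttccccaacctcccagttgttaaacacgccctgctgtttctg
IFIT5 (chr10:89414468-89414567, plus strand): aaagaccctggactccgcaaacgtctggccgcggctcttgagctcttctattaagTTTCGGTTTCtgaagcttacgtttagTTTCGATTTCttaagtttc

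Of the 40 genes, 33 had a promoter in the RefSeq table, in windows of 250 bases before to 50 bases after the start. The ISRE-like letters were in 22 of these 33 (66.7%), against 1195 of 27305 genes in the table (4.38%). They were in 4 of 7 antigen presentation genes and in 18 of 26 of the others. The GAS-like letters were in 12 of the 33 (36.4%), against 2560 of the 27305 (9.38%), and a match of one kind can lie beside or over one of the other. The set was chosen as interferon-response genes, whose promoters are known for such elements, so a high share follows from the choice and is not a result of these libraries. These are matches of letters and were not tested as binding sites. Genes with the ISRE-like letters are found among the called genes (B2M, SAMD9, PARP14, IFIT5) and among those called in none (ISG15, IFIT1, IFI6, BST2, TAP1).

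The level per length varied widely within the set. BST2, which tethers budding virus particles to the cell, had a mean of 701 TPM over the 12 libraries and B2M 555 TPM, each per length of the union of the gene's exons. The order of these leading genes depends on the length: per length of the longest transcript, an alternative added after seeing the data, B2M had 1089 TPM and BST2 597 TPM. HLA-B stood at 124 TPM, HLA-C at 106 TPM and IFI6, an interferon-induced mitochondrial and endoplasmic reticulum protein, at 97.2 TPM. STAT2, PSMB8 and HLA-E came next with means of 53.4, 51.2 and 51.0 TPM, which lie within the spread of their libraries. Of the 40 genes, 36 had a mean of at least 1 TPM. IFITM2, XAF1 and OAS2 were at 0.968, 0.657 and 0.583 TPM, and IRF7, the factor that amplifies type I interferon synthesis, had 6 counts in all 12 libraries together. IRF7 and IFITM2, which had 58 counts in all, did not pass the filter and have no test. IFITM1 and IFITM2 share exon positions on the same strand, so their counts are less certain.

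**Figure D1:**
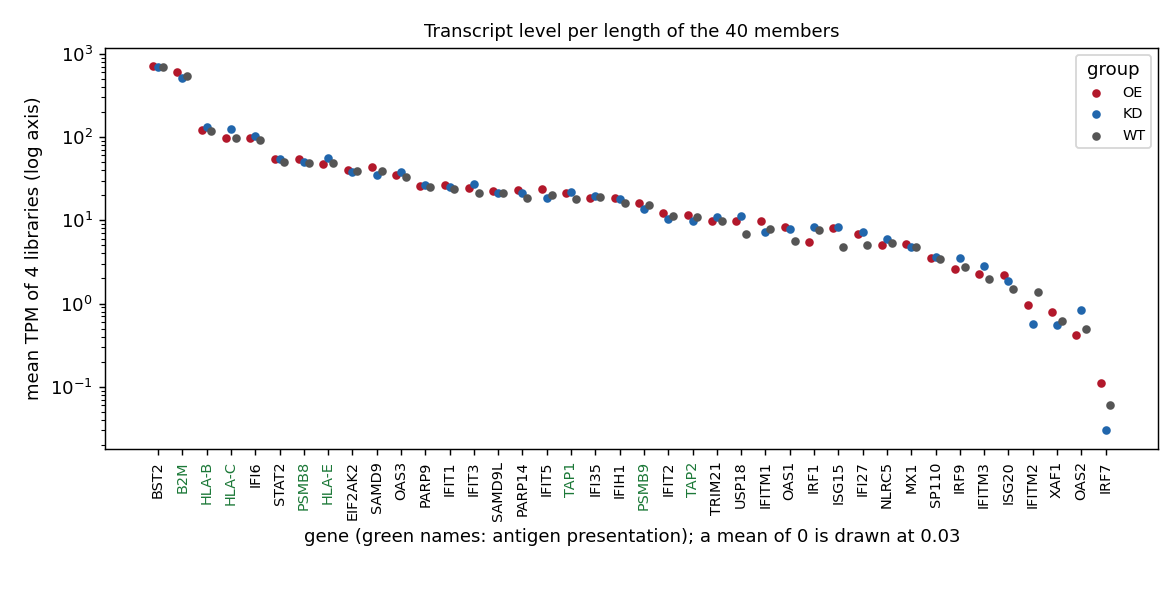
Mean level per gene length of the 40 genes in TPM (log axis) in OE, KD and WT libraries (4 each), ordered by the mean over all libraries. BST2 (701 TPM) and B2M (555 TPM) lead on the length of the union of exons, an order that turns on the length of the longest transcript, and IRF7, with no count in KD, ends it.

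Of the 8 antigen presentation genes 3 were called in OE against KD (37.5%) and 2 in KD against WT (25.0%), beside 13.8% and 9.06% of all genes tested. B2M, the light chain shared by all class I molecules (ENSG00000166710, chr15:44711487-44718877 on GRCh38, plus strand), had 1081.0, 1064.5, 998.9 and 1050.0 CPM in OE libraries, 814.4, 881.3, 931.9 and 905.4 CPM in KD libraries, and 1019.7, 970.0, 994.8 and 985.5 CPM in WT libraries. All 4 KD libraries were below all others. The log2 fold change was 0.25 ± 0.04 (SE) in OE against KD (adjusted p = 9.29e-07) and -0.17 ± 0.04 in KD against WT (adjusted p = 0.00102), and it was 0.08 ± 0.04 in OE against WT (adjusted p = 0.239). OE and WT libraries overlapped.

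HLA-C, a classical class I heavy chain (ENSG00000204525, chr6:31268749-31272130, minus strand), had 75.9, 65.4, 65.1 and 74.3 CPM in OE, 95.8, 84.7, 78.1 and 90.3 CPM in KD, and 75.8, 76.4, 71.2 and 64.1 CPM in WT. All 4 KD libraries were above all others. It was lower in OE than in KD, with a log2 fold change of -0.31 ± 0.07 (adjusted p = 0.000744), and higher in KD than in WT by 0.28 ± 0.07 (adjusted p = 0.00482). OE against WT gave -0.04 ± 0.07 (adjusted p = 0.858). Without KD replicate 3, the highest library, both HLA-C calls and both B2M calls held.

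HLA-E, a nonclassical heavy chain that presents leader peptides of other class I chains to natural killer cell receptors (ENSG00000204592, chr6:30489467-30494205, plus strand), had 39.6, 38.5, 42.9 and 41.3 CPM in OE, 48.6, 50.6, 44.8 and 46.5 CPM in KD, and 43.1, 43.7, 46.7 and 38.6 CPM in WT. OE and KD libraries did not overlap, and WT libraries lay across the gap between them. The log2 fold change was -0.23 ± 0.08 in OE against KD (adjusted p = 0.0366). The call was lost without KD replicate 3, 4 or 6 or OE replicate 3, 4 or 6, with adjusted p up to 0.110, and with no filter on low counts. In KD against WT the value was 0.14 ± 0.08 (adjusted p = 0.283).

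HLA-B, the other classical heavy chain of the set, averaged 107 ± 2.44 CPM in OE, 113 ± 12.8 CPM in KD and 108 ± 4.28 CPM in WT, and was not called. Its annotation overlaps that of HLA-C on the same strand, and class I genes share long stretches of sequence, so the split of reads among HLA-B, HLA-C and HLA-E depends on the counting, whose treatment of reads with several matches is not given in the sources used here. TAP1 and TAP2 form the transporter that moves peptides into the endoplasmic reticulum. TAP1 averaged 28.8 ± 4.13 CPM in OE, 30.0 ± 2.64 CPM in KD and 26.2 ± 3.74 CPM in WT. TAP2 averaged 21.0 ± 0.768 CPM in OE, 17.5 ± 1.19 CPM in KD and 20.8 ± 1.33 CPM in WT, with adjusted p of 0.109 in OE against KD and 0.159 in KD against WT. All 4 KD libraries of TAP2, at 15.8 to 18.4 CPM, were below all others, and neither comparison was called. PSMB8 and PSMB9, catalytic subunits of the immunoproteasome, averaged 47.0 and 14 CPM in OE, 42.5 and 11.7 CPM in KD, and 43.2 and 14.1 CPM in WT, and neither was called.

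Because each class I molecule holds 1 heavy chain and 1 light chain, heavy-chain counts were also set against B2M counts in the same library. This ratio was chosen after the values were seen and is given with no test. HLA-C had 66.9 ± 4.42 counts per 1000 B2M counts in OE, 99.3 ± 14 in KD and 72.4 ± 5.75 in WT (SD, n = 4 each). HLA-E had 38.8 ± 3.14 in OE, 54.1 ± 5.35 in KD and 43.4 ± 3.38 in WT. For both, every KD library was above every OE and WT library. B2M, the denominator, was itself lowest in KD. By its own CPM HLA-E was not called in KD against WT (0.14, adjusted p = 0.283), nor was HLA-B (0.07, adjusted p = 0.548). The lowest KD ratio of HLA-E was 48.1 and its highest WT ratio 46.9. HLA-B had 102 ± 5.77 in OE, 129 ± 20.7 in KD and 108 ± 5.01 in WT, and the KD libraries, at 105 to 154, overlapped the others. KD replicate 3 was the highest library for all 3 ratios. Without it, the other 3 KD libraries averaged 93.2 ± 8.31 for HLA-C (83.8 to 99.7), 52.3 ± 4.76 for HLA-E (48.1 to 57.4) and 120.3 ± 14.5 for HLA-B. The same was done for the immunoproteasome subunits against the constitutive subunits they replace. PSMB8 had 482 ± 30.4 counts per 1000 PSMB5 counts in OE, 408 ± 9.10 in KD and 449 ± 43.9 in WT, and every KD library was below every other. PSMB9 had 144 ± 18.4 per 1000 PSMB6 counts in OE, 105 ± 20.1 in KD and 135 ± 19.3 in WT, with overlap. PSMB6, the denominator, was itself called lower in OE than in KD (-0.21, adjusted p = 0.0105). Without KD replicate 3 the KD means were 405 ± 7.89 for PSMB8 and 99.5 ± 21.2 for PSMB9.

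**Figure D2:**
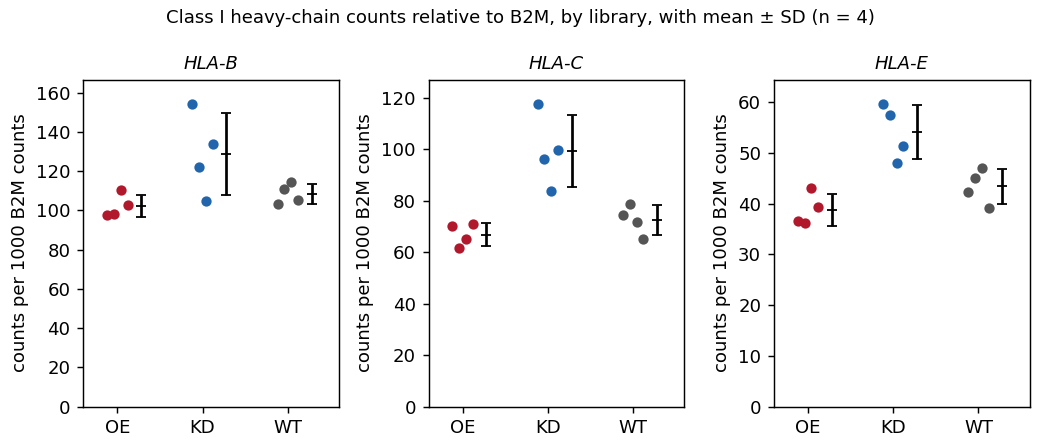
Counts of HLA-B, HLA-C and HLA-E per 1000 B2M counts in each OE, KD and WT library (points), with mean ± SD (bars, n = 4). KD libraries stand above all others for HLA-C and HLA-E, and overlap them for HLA-B. B2M itself was lowest in KD.

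The regulators held 1 called gene. IRF1, a transcription factor that drives class I and antiviral genes after interferon gamma (ENSG00000125347, chr5:132481609-132490798, minus strand), had 12.5, 12.1, 12.9 and 11.8 CPM in OE, 20.3, 17.2, 19.2 and 16.6 CPM in KD, and 17.9, 15.4, 20.6 and 17.7 CPM in WT. All 4 OE libraries were below all others, while KD and WT overlapped. IRF1 was lower in OE than in KD, with a log2 fold change of -0.57 ± 0.12 (adjusted p = 0.00056), and lower in OE than in WT, at -0.54 ± 0.12 (adjusted p = 0.0033). KD against WT gave 0.03 ± 0.12 (adjusted p = 0.916). Exons of C5orf56, with 379 counts in all libraries against 2264 for IRF1, overlap IRF1 on the opposite strand, and the strand setting of the counting is not given in the sources used here. The same holds for EIF2AK2 with GPATCH11, PARP9 with DTX3L, IFIT2 with LIPA and PSMB8 with PSMB9, which overlap on opposite strands.

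The other regulators were not called. STAT2, a transcription factor activated by type I interferon, averaged 95.6 ± 7.77 CPM in OE, 94.9 ± 12.1 CPM in KD and 91.9 ± 5.55 CPM in WT. IRF9, a DNA-binding interferon regulatory factor, was low, at 2.82 ± 0.968 CPM in OE, 3.75 ± 1.04 CPM in KD and 3.11 ± 1.27 CPM in WT. NLRC5, the class I transactivator, averaged 17.9 ± 2.43 CPM in OE, 20.8 ± 1.74 CPM in KD and 19.6 ± 0.733 CPM in WT. USP18, which removes ISG15 from proteins and dampens the type I receptor, had 5.30 to 6.87 CPM in OE, 5.44 to 8.05 CPM in KD and 2.94 to 6.44 CPM in WT. Its log2 fold change in KD against WT was 0.59 ± 0.21 (adjusted p = 0.067), and it was called without WT replicate 5 (0.85, adjusted p = 0.0141), without KD replicate 5 (adjusted p = 0.0378) and with library sizes alone (adjusted p = 0.0482).

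Among the sensors and translation controls, OAS1 was called. OAS1 makes the oligoadenylates that switch on RNase L (ENSG00000089127, chr12:112906777-112933222, plus strand). It had 11.6, 10.2, 11.9 and 13.7 CPM in OE, 13.2, 10.5, 11.0 and 9.35 CPM in KD, and 8.80, 8.70, 8.29 and 7.73 CPM in WT. All OE and all KD libraries were above all 4 WT libraries, and OE and KD overlapped. The log2 fold change was 0.51 ± 0.15 in OE against WT (adjusted p = 0.0324), 0.40 ± 0.15 in KD against WT (adjusted p = 0.0899) and 0.45 ± 0.13 for the mean of KD and OE against WT (adjusted p = 0.0296). The OE call was lost without any 1 of the 4 WT libraries or OE replicate 3, 5 or 6, with fold changes of 0.43 to 0.53 (adjusted p 0.058 to 0.15), and with no filter on low counts (0.50, adjusted p = 0.0517). The call for the mean was lost without any 1 of the WT libraries, KD replicate 3 or OE replicate 6 (adjusted p 0.0576 to 0.108). Its relatives OAS2 (0.583 TPM) and OAS3 (35.3 TPM), the RNA helicase IFIH1 and the kinase EIF2AK2 were not called, and OAS3 averaged 82.7 ± 7.99 CPM in OE, 88.4 ± 3.88 CPM in KD and 81.1 ± 3.92 CPM in WT.

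Of the IFIT and IFITM families, which bind viral RNA and block viral entry, IFIT5 was called, in OE against KD. That is 1 of 6 tested (16.7%), beside 13.8% of all genes tested. IFIT5 (ENSG00000152778, chr10:89414586-89421001, plus strand) had 27.4, 27.3, 26.9 and 27.1 CPM in OE, 20.2, 22.3, 21.9 and 20.5 CPM in KD, and 26.6, 20.2, 20.2 and 28.9 CPM in WT. OE libraries were close together and above all KD libraries, and WT libraries spread across both levels. The log2 fold change in OE against KD was 0.35 ± 0.11 (adjusted p = 0.017), and the call was lost without KD replicate 6 (adjusted p = 0.0528). The neighbouring family members gave other values in the same comparison: 0.10 ± 0.09 for IFIT1, 0.27 ± 0.14 for IFIT2 and -0.14 ± 0.11 for IFIT3, none called. IFITM1 and IFITM3 were low, at 3.04 ± 0.721 and 0.870 ± 0.549 CPM in OE, 2.21 ± 0.802 and 1.06 ± 0.346 CPM in KD, and 2.55 ± 0.354 and 0.787 ± 0.588 CPM in WT, and were not called.

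Among the 14 other antiviral and interferon-induced genes, SAMD9 and PARP14 were called, in different comparisons. SAMD9 was 1 of the 14 (7.14%) in OE against KD and in KD against WT, beside 13.8% and 9.06% of all genes tested. PARP14 was 1 of the 14 in OE against WT and in the mean of KD and OE against WT, beside 5.00% and 5.45%. SAMD9, a cytoplasmic restriction factor for poxviruses (ENSG00000205413, chr7:93099513-93118023, minus strand), had 82.8, 88.8, 79.5 and 87.8 CPM in OE, 65.6, 71.2, 66.5 and 64.5 CPM in KD, and 73.0, 79.2, 79.0 and 84.7 CPM in WT. All 4 KD libraries were below all others. SAMD9 was higher in OE than in KD, with a log2 fold change of 0.34 ± 0.06 (adjusted p = 8.05e-05), and in KD it was below WT, at -0.24 ± 0.06 (adjusted p = 0.0105). The KD against WT call was lost without WT replicate 6 (adjusted p = 0.06). SAMD9L, its paralog and neighbour on chromosome 7, averaged 45.9 ± 2.95 CPM in OE, 42.9 ± 6.02 CPM in KD and 44.9 ± 2.46 CPM in WT, and was not called.

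PARP14, a mono-ADP-ribosyltransferase that acts in STAT6 and interferon signalling (ENSG00000173193, chr3:122680618-122730840, plus strand), had 70.5, 73.3, 63.1 and 70.4 CPM in OE, 62.2, 65.7, 61.5 and 61.5 CPM in KD, and 55.9, 53.3, 58.5 and 63.0 CPM in WT. All 4 OE libraries were above all WT libraries, and KD overlapped both. The log2 fold change was 0.27 ± 0.07 in OE against WT (adjusted p = 0.0111), 0.12 ± 0.07 in KD against WT (adjusted p = 0.311) and 0.19 ± 0.06 for the mean of KD and OE against WT (adjusted p = 0.0437). The OE call was lost without WT replicate 3 or 4 or OE replicate 4 (adjusted p 0.0507 to 0.0727). The call for the mean was lost without WT replicate 3, 4 or 5, KD replicate 4 or 6 or OE replicate 3, 4 or 6 (adjusted p 0.0556 to 0.216). PARP9, which forms a complex with DTX3L, averaged 65.5 ± 2.82 CPM in OE, 67.3 ± 4.78 CPM in KD and 66.9 ± 4.21 CPM in WT.

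MX1, ISG15, IFI27 and BST2, widely used as markers of an interferon response, were not called in any comparison. MX1, a GTPase that traps viral nucleocapsids, averaged 12.8 ± 1.57 CPM in OE, 11.8 ± 1.69 CPM in KD and 12.3 ± 1.47 CPM in WT. ISG15, a ubiquitin-like modifier, had 1.64 to 3.15 CPM in OE, 1.84 to 2.92 CPM in KD and 0.757 to 1.84 CPM in WT, with log2 fold changes of 0.66 ± 0.36 in OE against WT and 0.70 ± 0.36 in KD against WT (adjusted p 0.347 and 0.254). IFI27 averaged 8.05 ± 1.12 CPM in OE, 8.42 ± 2.45 CPM in KD and 6.32 ± 0.547 CPM in WT. BST2 averaged 228 ± 6.03 CPM in OE, 221 ± 17.1 CPM in KD and 230 ± 8.44 CPM in WT. At these depths ISG15, IFITM3, OAS2 and XAF1 had few counts, and standard errors of their log2 fold changes were 0.34 to 0.55.

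**Figure D3:**
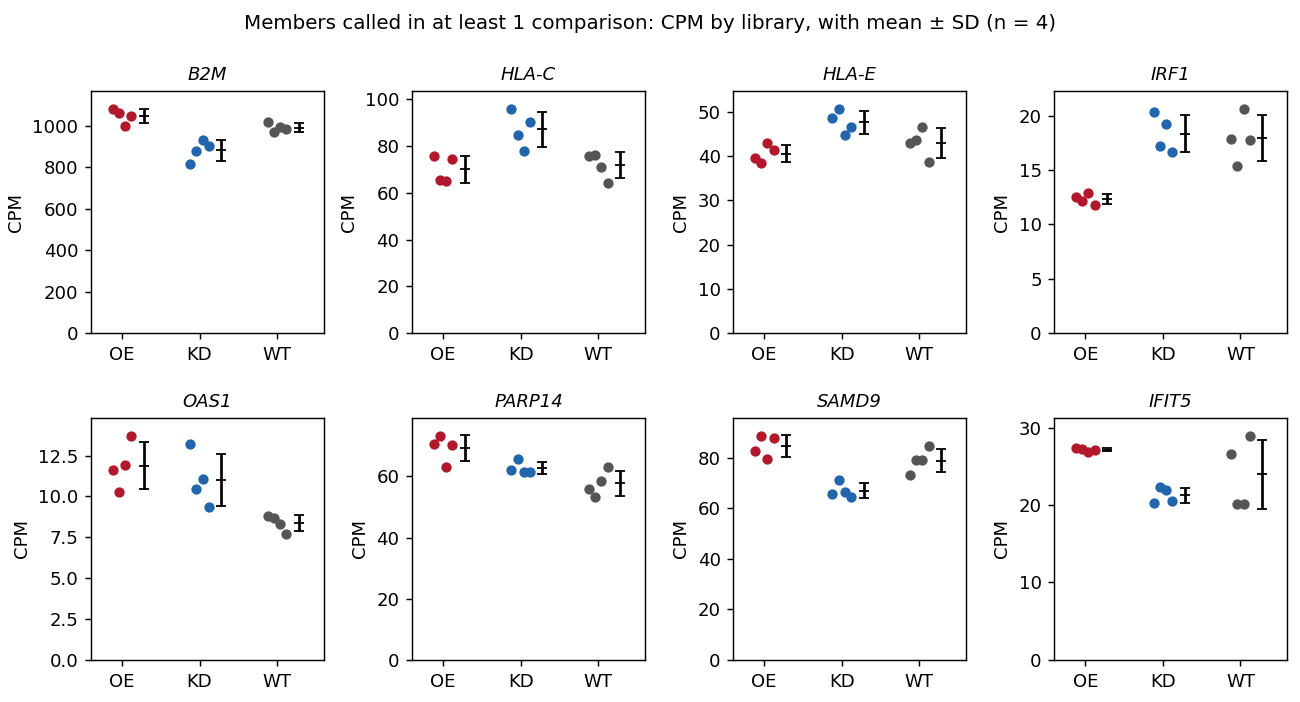
CPM of the 8 called genes in each OE, KD and WT library (points), with mean ± SD (bars, n = 4). B2M and SAMD9 are lowest and HLA-C highest in KD, IRF1 is lowest in OE, and OAS1 is lowest in WT.

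Counted by comparison, the calls were close to the share of all genes called. In OE against KD 6 of 38 tested genes were called, 15.8%, against 13.8% of all genes tested. B2M, SAMD9 and IFIT5 were higher, as were 7.27% of all genes, and IRF1, HLA-C and HLA-E were lower, as were 6.55%. In KD against WT 3 were called, 7.89%, against 9.06% of all genes, with HLA-C higher (3.84% of all genes) and B2M and SAMD9 lower (5.22%). In OE against WT 3 were called, also 7.89%, against 5.00% of all genes, with PARP14 and OAS1 higher (2.13% of all genes) and IRF1 lower (2.87%). The mean of KD and OE against WT gave 2 calls, OAS1 and PARP14, or 5.26% against 5.45% of all genes. Both were higher, as were 2.21% of all genes, and no gene of the set was lower, against 3.24%. The comparisons share libraries, so their values are set side by side and are not independent of each other.

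At an unadjusted p under 0.05 the count of the 38 was 10 in OE against KD (26.3%, beside 25.7% of all genes tested) and 9 in KD against WT (23.7%, beside 21.8%). It was 4 in OE against WT (10.5%, beside 17.4%) and 7 for the mean of both (18.4%, beside 17.0%). The median log2 fold change of the 38 genes was -0.0017 in OE against KD, 0.057 in KD against WT and, for OE against WT, 0.051, beside medians over all genes of -0.0023, 0.0050 and 0.0024 in the same order. At an adjusted p under 0.05 antigen presentation genes gave 3, 2 and 0 calls among 8 in these comparisons (37.5%, 25.0% and 0%). The antiviral and regulatory genes gave 3, 1 and 3 among 30 (10.0%, 3.33% and 10.0%). The shares of all genes tested were 13.8%, 9.06% and 5.00% in the same order. In KD against WT 42.4% of all called genes were higher, and with library sizes alone 60.8%; in OE against WT the shares were 42.6% and 56.9%. No called gene of the set changed direction with that scaling.

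**Figure D4:**
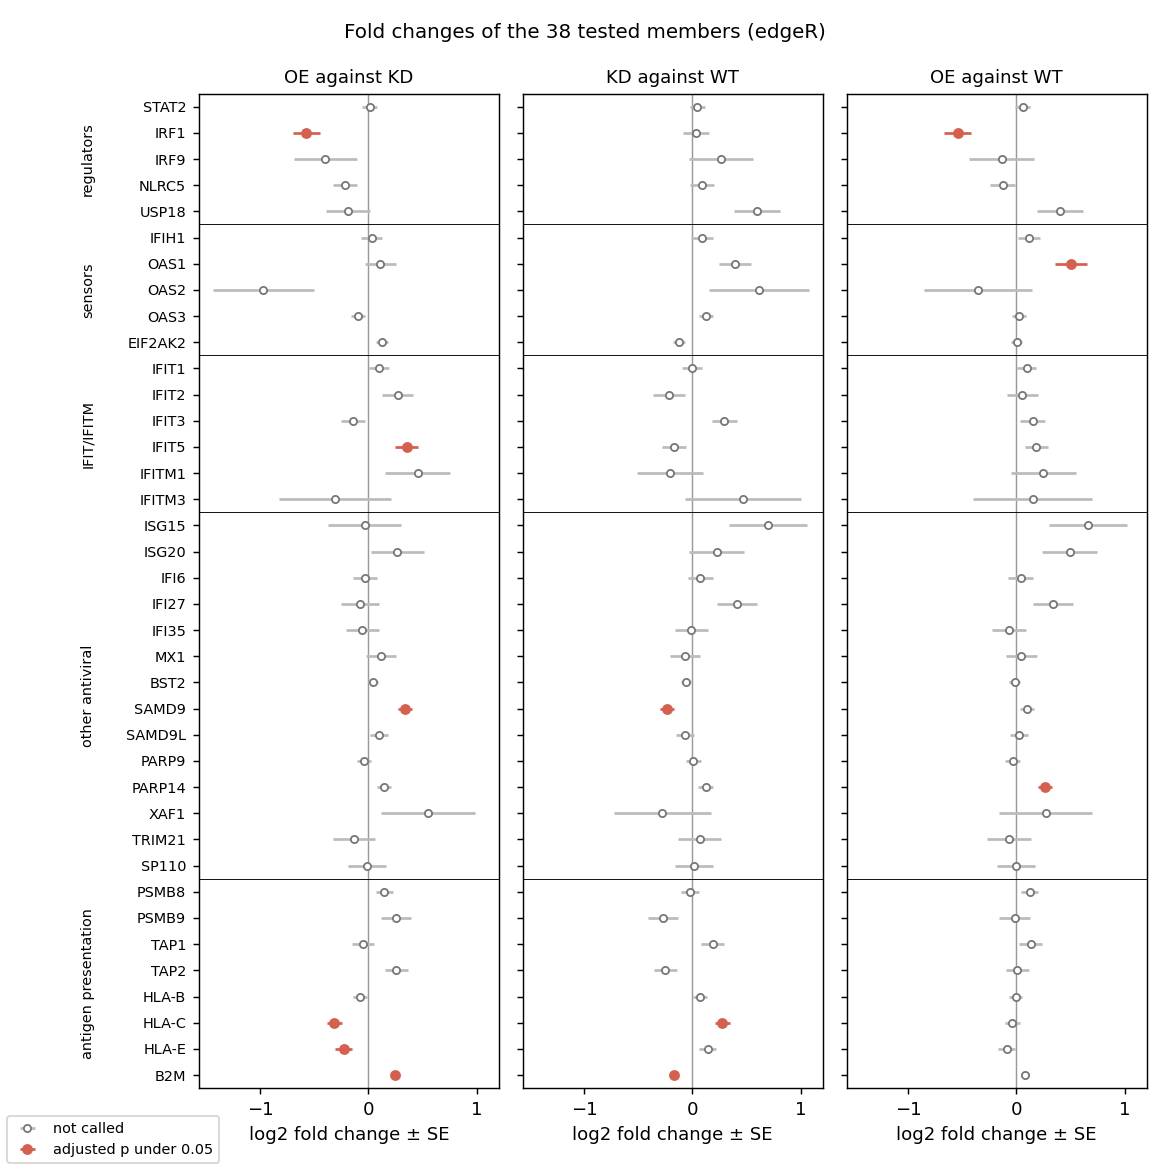
Log2 fold change (± SE) of the 38 tested genes in OE against KD, KD against WT and OE against WT, by role. Filled red points are genes called at an adjusted p under 0.05, and they number 6, 3 and 3 of 38.

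**Figure D5:**
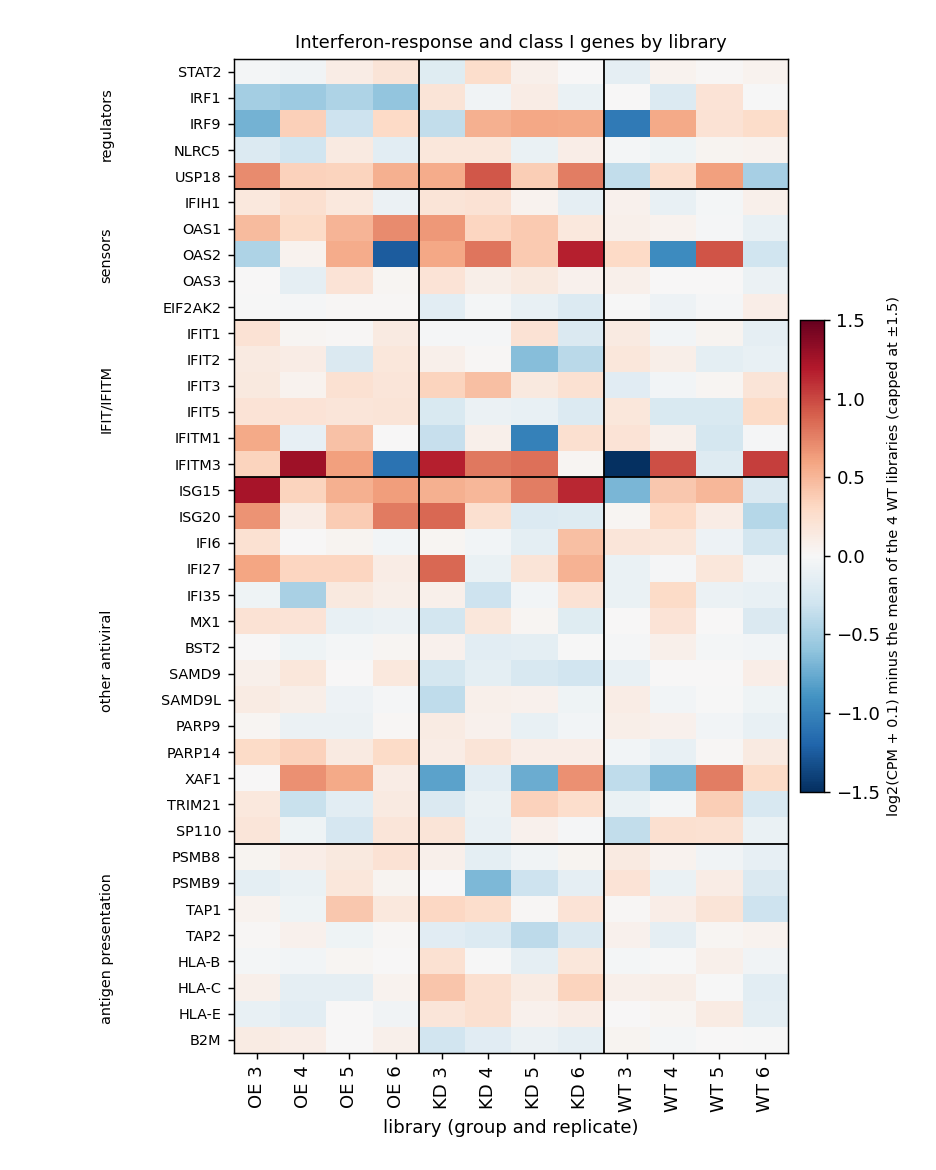
Each library's log2(CPM + 0.1) minus the mean of the 4 WT libraries for the 38 tested genes (rows, by role) in OE, KD and WT libraries (columns), with colours capped at 1.5. IRF1 is low in all OE libraries, HLA-C is high in all KD libraries, and low-count genes such as IFITM3, OAS2 and XAF1 vary within each group.

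The called genes differed in base composition. In OE against KD the 3 genes that were higher had transcript GC shares of 36.1% (SAMD9), 37.4% (IFIT5) and 40.6% (B2M), and the 3 that were lower had 52.6% (IRF1), 54.8% (HLA-E) and 62.7% (HLA-C). With offsets for GC share and length in each library, an alternative added after seeing the data, HLA-C gave -0.24 in OE against KD (adjusted p = 0.00378) and 0.21 in KD against WT (adjusted p = 0.0148). B2M gave 0.22 in OE against KD (adjusted p = 2e-07) and -0.15 in KD against WT (adjusted p = 0.000673). IRF1 gave -0.56 in OE against KD (adjusted p = 0.000442), and SAMD9 0.25 (adjusted p = 0.00176) and IFIT5 0.30 (adjusted p = 0.0373) in the same comparison. HLA-E in OE against KD (-0.19, adjusted p = 0.0726) and SAMD9 in KD against WT (-0.17, adjusted p = 0.0595) were no longer called.

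The interferon genes themselves were at or near 0. Of 21 interferon genes, 18 had 0 counts in every library, all 21 together had 7 counts, and none was tested; a count of 0 allows up to 0.217 to 0.322 CPM, depending on the library (3 counts, counting error only). Of 11 receptor and JAK-STAT genes 10 were tested, and TYK2, a kinase of the type I receptor, was called, which is 10.0% in OE against KD and in KD against WT, beside 13.8% and 9.06% of all genes. TYK2 averaged 71.9 ± 1.93 CPM in OE, 82.6 ± 6.16 CPM in KD and 69.1 ± 4.38 CPM in WT. It was lower in OE than in KD, at -0.20 ± 0.06 (adjusted p = 0.0288), and higher in KD than in WT, at 0.26 ± 0.07 (adjusted p = 0.00563). Without KD replicate 3 the OE against KD value was not called (-0.16, adjusted p = 0.118).

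Among 9 inhibitors of the pathway SOCS3 was called in OE against KD and PTPN1 in KD against WT. Each is 11.1% of the 9, beside 13.8% and 9.06% of all genes tested. SOCS3, a feedback inhibitor of JAK kinases, averaged 7.38 ± 1.24 CPM in OE, 11.8 ± 1.79 CPM in KD and 9.15 ± 1.31 CPM in WT, and was lower in OE than in KD at -0.67 ± 0.16 (adjusted p = 0.00188). PTPN1, a phosphatase that acts on JAK2 and TYK2, averaged 84.5 ± 2.96 CPM in OE, 93.1 ± 7.67 CPM in KD and 79.8 ± 1.93 CPM in WT, and was higher in KD than in WT at 0.22 ± 0.06 (adjusted p = 0.0132), a call lost without KD replicate 3 (0.16, adjusted p = 0.0970). Of 15 nucleic acid sensing genes 11 were tested. In OE against KD 3 were called: TRIM25 (0.28) and DHX58 (0.49) were higher and IFI16 (-0.33) lower. In KD against WT 2 were called, MAVS (0.27) and IFI16 (0.22), both higher. These were 27.3% and 18.2% of the 11, beside 13.8% and 9.06% of all genes tested. The IFI16 call in KD against WT was lost without KD replicate 3 (0.19, adjusted p = 0.108). IFI16, a DNA sensor, averaged 66.4 ± 8.64 CPM in OE, 83.0 ± 5.62 CPM in KD and 71.2 ± 1.33 CPM in WT. MAVS, the mitochondrial adaptor of RNA helicases, averaged 108 ± 4.16 CPM in OE, 118 ± 6.80 CPM in KD and 98.1 ± 3.98 CPM in WT. CGAS, STING1, ZBP1 and AIM2 were at or near 0 and were not tested.

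Of 60 other interferon-induced genes 46 were tested, and 8 were called in OE against KD (3 higher, 5 lower), 4 in KD against WT (2 higher, 2 lower) and 3 in OE against WT (1 higher, 2 lower). These are 17.4%, 8.70% and 6.52% of the 46, beside 13.8%, 9.06% and 5.00% of all genes. GBP2, a guanylate-binding protein induced by interferon gamma, had 5.72, 4.39, 5.93 and 5.58 CPM in OE, 16.6, 11.4, 14.8 and 13.6 CPM in KD, and 7.66, 7.75, 7.11 and 5.22 CPM in WT. All 4 KD libraries were above all others, with log2 fold changes of -1.38 ± 0.16 in OE against KD (adjusted p = 5.55e-09) and 1.02 ± 0.16 in KD against WT (adjusted p = 6.96e-06). LY6E, an interferon-induced membrane protein that restricts coronavirus entry, averaged 266 ± 7.33 CPM in OE, 319.7 ± 26.5 CPM in KD and 319.7 ± 10.7 CPM in WT. It was lower in OE than in KD (-0.27 ± 0.05, adjusted p = 1.77e-05) and than in WT (-0.27 ± 0.05, adjusted p = 4.36e-05). SHISA5 averaged 127 ± 5.06 CPM in OE, 154 ± 9.95 CPM in KD and 143 ± 9.09 CPM in WT, and was lower in OE than in KD (-0.27 ± 0.05, adjusted p = 0.000211). NMI, a STAT-interacting protein, averaged 30.4 ± 1.24 CPM in OE, 26.4 ± 2.29 CPM in KD and 23.6 ± 3.86 CPM in WT, and was higher in OE than in WT (0.36 ± 0.10, adjusted p = 0.0247). SAMHD1, a deoxynucleotide hydrolase that limits retroviruses, averaged 91.6 ± 3.92 CPM in OE, 75.1 ± 2.54 CPM in KD and 92.8 ± 3.38 CPM in WT, and was higher in OE than in KD (0.29 ± 0.06, adjusted p = 0.000336) and below WT in KD (-0.30 ± 0.06, adjusted p = 0.000241). LGALS3BP averaged 117 ± 5.25 CPM in OE, 112 ± 10.5 CPM in KD and 144 ± 10.0 CPM in WT, and was lower in both engineered groups (-0.31 ± 0.06 in OE against WT, adjusted p = 0.000292, and -0.37 ± 0.06 in KD against WT, adjusted p = 7.15e-06). SLFN5, at 1.70 ± 0.382 CPM in OE, 3.12 ± 0.492 CPM in KD and 1.27 ± 0.834 CPM in WT, was higher in KD than in WT (1.27 ± 0.36, adjusted p = 0.0158).

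Of 19 other class I presentation genes 18 were tested. In KD against WT 4 were called: ERAP1, ERAP2 (-0.22) and CANX (-0.18) were lower and RFX5 (0.19) higher, the last a call lost without KD replicate 3 (0.16, adjusted p = 0.0750). In OE against KD 2 were called, and in OE against WT 3. For the mean of KD and OE against WT 6 were called, of which 1 was higher and 5 lower. These were 22.2% of the 18 in KD against WT, 11.1% in OE against KD, 16.7% in OE against WT and 33.3% for the mean. The shares of all genes tested were 9.06%, 13.8%, 5.00% and 5.45% in the same order. ERAP1, an aminopeptidase that trims peptides for class I loading, averaged 48.0 ± 0.777 CPM in OE, 43.4 ± 2.52 CPM in KD and 57.5 ± 1.5 CPM in WT, and all OE and KD libraries were below all WT libraries. It was lower in OE than in WT at -0.26 ± 0.07 (adjusted p = 0.018) and in KD than in WT at -0.41 ± 0.07 (adjusted p = 4.73e-05). CALR, a chaperone of the peptide-loading complex, averaged 459.8 ± 12.8 CPM in OE, 517 ± 26.6 CPM in KD and 557 ± 6.81 CPM in WT, and was lower in OE than in WT at -0.28 ± 0.04 (adjusted p = 5.79e-07). RFX5, a transcription factor of class I and class II promoters, averaged 129 ± 5.28 CPM in OE, 123 ± 5.33 CPM in KD and 108 ± 4.94 CPM in WT, and was higher in OE than in WT at 0.26 ± 0.05 (adjusted p = 0.000959).

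The 14 constitutive proteasome subunits include some that the immunoproteasome subunits replace. In OE against KD 3 were lower: PSMB6 at -0.21, PSMB1 at -0.16 and PSMB3 at -0.18. They are 21.4% of the 14, beside 13.8% of all genes tested. None of the 14 was called in the other comparisons. PSMB6 averaged 97.5 ± 3.68 CPM in OE, 112 ± 9.10 CPM in KD and 105 ± 4.54 CPM in WT, with a log2 fold change of -0.21 ± 0.06 in OE against KD (adjusted p = 0.0105). Of 12 class II presentation genes 3 were tested and none was called, and the summed level of all 12 was 3.95 to 7.06 CPM in OE, 4.86 to 8.15 CPM in KD and 5.30 to 7.65 CPM in WT.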

How the data were processed

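Raw counts per Ensembl gene and library were deposited as 1 table, made with FastQC, HISAT2 1.03 and Subread featureCounts on GRCh38, with DESeq2 also named, per the submitters' processing notes. The libraries were strand-specific and paired-end, from total RNA of cells at 70% confluence, per the labels' protocols. Not given in the sources used here are the annotation release, the strand setting, how multi-mapping reads were treated and whether single reads or pairs were counted. One gene had blank counts and 3 lines named no gene; all were left out. Coordinates and gene lengths come from GENCODE release 29, promoters from RefSeq.

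All 12 libraries entered 1 edgeR 4.0.16 fit in R 4.3.3 (robust quasi-likelihood, TMM factors, 9 residual degrees of freedom). The filterByExpr step used groups, a minimum count of 10 and a minimum total of 15, and p-values were Benjamini-Hochberg adjusted over 15916 genes. The common biological coefficient of variation was 7.38%. The standard error of a log2 fold change is its size over the root of the F statistic. CPM use TMM-adjusted library sizes. TPM divide counts by the length of the union of a gene's exons. DESeq2 1.42.0 was an alternative. The fit was tested on simulated data.

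The members and gene lists were chosen with earlier results of these data known. Every member was eligible to be named, called ones with values in every library, and up to 4 called genes of each other list by smallest adjusted p. Markers of fibroblasts summed to 16.4 to 18.9 CPM in OE, 14.9 to 20.1 CPM in KD and 16.6 to 21.0 CPM in WT, and those of endothelial cells to 0.572 to 1.02, 0.480 to 1.14 and 0.653 to 1.59 CPM in the same order.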

Additional observations from a re-analysis of the deposited data

Results flagged for a closer look

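In 2 of 114 sets of 4 libraries of 1 gene and group, 1 library lay far from the other 3 relative to the range; chance gives such a gap in about 1 of 20 sets. IRF9 was at 2.20 CPM in KD replicate 3, against 4.19 to 4.32 CPM in the other KD libraries. IFI35, an interferon-induced protein, was at 13.5 CPM in WT replicate 4, against 10.2 to 10.4 CPM in the other WT libraries. Neither gene was called in any comparison.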

How the results depend on the processing

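The 14 called values of the 8 genes were recomputed under 21 alternatives, which gave 292 values. Of these, 254 kept direction and call, 38 kept direction but were no longer called, and 0 reversed. B2M, HLA-C and IRF1 kept all their calls, as did SAMD9 in OE against KD. Genes called in OE against WT numbered 1236 when only those groups were fitted, against 796. The mean of KD and OE against WT called 1 gene of the set, not 2, with no filter and with the replicate block. Leaving out 1 library gave 1660 to 2220 genes in OE against KD (4 to 6 of the set), 1032 to 1557 in KD against WT (2 to 4), 563 to 1064 in OE against WT (1 to 3) and 553 to 990 for the mean (0 to 2). The set's count in OE against WT was 1 without WT replicate 3 or 4. For the mean, all genes numbered 561 without WT replicate 3 and 553 without WT replicate 5, and the set's count was 0 without WT replicate 3 or 4 or OE replicate 6 and 1 without WT replicate 5 or 6, KD replicate 3, 4 or 6 or OE replicate 3 or 4. The causes were not tested. After each group's mean log CPM was taken off gene by gene, same-numbered libraries of different groups correlated at -0.03 to 0.07. Other pairs from different groups correlated at -0.09 to 0.07, and 5 of 12 libraries were closest to their own number. These values show no clear pairing by replicate number. With the block 2082, 1327, 735 and 796 genes were called in OE against KD, KD against WT, OE against WT and the mean, and PARP14 in the mean was the 1 called value lost (0.19, adjusted p = 0.0597). Genes with few counts, such as ISG15, OAS2 and IFITM3, are limited by depth.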
